A study of Mus musculus with 18 samples.

Results

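The 4 array entries described here are miR-214, miR-199a-5p, miR-199b* and a joint entry for miR-199b and miR-199a-3p. They are every entry whose name begins with mmu-miR-199 (mmu-miR-199a-5p, mmu-miR-199b* and the joint entry), together with mmu-miR-214, out of 566 mouse miRNA entries on the array, and all 4 were among the 226 entries bright enough to test. The entries were chosen by their signal at 60 h against 24 h, several being higher at the later time, so changes with time are given below as a description without a test, and only differences between constructs were tested. Neuro2A, a mouse neuroblastoma line (strain A per the labels), was nucleofected with the TATA-binding protein (TBP) fused to green fluorescent protein. The 6 groups are 59Q-TBP and 16Q-TBP cells, named for the length of the glutamine tract of the protein, each with 3 biological replicates at 24, 36 and 60 h from transfection. TBP takes part in transcription by all nuclear RNA polymerases, and an expanded glutamine tract in it causes spinocerebellar ataxia type 17. All 6 groups carry a TBP fusion, so no difference below compares TBP with its absence, and the labels give neither the promoter of the construct nor the share of cells that took it up. The labels do not say whether replicates came from separate cultures, and the p-values therefore measure the spread between these samples only.

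A miRNA gene gives a hairpin RNA whose 5p and 3p arms can each be cut out as a mature miRNA of about the length of the sequences below. The mature strand guides Argonaute to mRNAs, mainly by pairing through its seed, bases 2 to 8, and an asterisk in an older name marks the arm thought to be less abundant. In mouse, Mir199a-2 and Mir214 lie within Dnm3os, a long noncoding RNA transcribed on the strand opposite to Dnm3. miR-199 and miR-214 are best known from mesenchymal cells such as fibroblasts and from developing bone and muscle, and Dnm3os is regulated there by the basic helix-loop-helix factor Twist1.

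The mature sequences below are RefSeq's on GRCm38.p6 with the seed in capitals, shown because they decide which genes each entry can report. miR-199a-5p comes from chr1:162217844-162217866 (+) and in identical form from Mir199a-1 at chr9:21496537-21496559 (-). miR-199a-3p lies at chr1:162217883-162217904 (+) and at chr9:21496498-21496519 (-), and the identical miR-199b-3p at chr2:32318524-32318545 (+). miR-214, the 3p arm of its hairpin, lies at chr1:162223438-162223459 (+), and the opposite arm, listed on the array as miR-214*, at chr1:162223397-162223418 (+). For miR-199b* the Mir199b hairpin, chr2:32318460-32318569 (+), is given with capitals on the stretch most like miR-199a-5p.
miR-199a-5p: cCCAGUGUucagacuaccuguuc
miR-199a-3p and miR-199b-3p: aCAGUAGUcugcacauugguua
miR-214: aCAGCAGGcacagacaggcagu
miR-214*: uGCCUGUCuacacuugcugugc
miR-761: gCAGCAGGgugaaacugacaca
Mir199b hairpin: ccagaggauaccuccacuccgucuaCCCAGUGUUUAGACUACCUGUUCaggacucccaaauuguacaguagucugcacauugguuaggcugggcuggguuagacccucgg

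The entries together reach 4 hairpin genes on 3 chromosomes. Mir199a-2 and Mir214 lay 5444 bases apart within Dnm3os on chromosome 1. Mir199b is spanned by Dnm1 on chromosome 2 and Mir199a-1 by Dnm2 on chromosome 9, in each case on the strand opposite to the dynamin gene. In the RefSeq table only miR-214 thus belongs to the Dnm3os locus alone. miR-199a-5p can come from Mir199a-2 or Mir199a-1, and the joint 3p entry from any of the 3 miR-199 genes. The capital stretch of the Mir199b hairpin matched miR-199a-5p at 22 of 23 bases with the substitution C10U (positions counted from 1 at the 5′ end of miR-199a-5p), and whether the array probes keep the 2 apart was not tested. Among the printed miRNAs the 3 miR-199 and miR-214 seeds differ, while miR-761, a miRNA of chromosome 4 shown for this reason, has the miR-214 seed.

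The promoter of Dnm3os, 250 bases before to 50 after its RefSeq start at chr1:162217373-162217672 (+, GRCm38.p6), is shown since miR-214 and miR-199a-2 share it. The capitals mark matches to CANNTG, the E-box letters read by basic helix-loop-helix factors such as Twist1, searched on both strands.
Dnm3os promoter: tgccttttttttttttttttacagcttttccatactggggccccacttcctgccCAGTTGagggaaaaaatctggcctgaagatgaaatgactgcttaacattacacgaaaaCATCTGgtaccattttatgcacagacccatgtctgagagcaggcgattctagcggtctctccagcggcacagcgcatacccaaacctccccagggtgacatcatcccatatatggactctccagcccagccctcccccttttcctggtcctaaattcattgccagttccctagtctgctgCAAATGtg
It held 3 such matches, and 72.3% of 32851 mouse promoters of this length held at least 1. The letters TATAAA, the core of a TATA box, to which TBP binds, had 0 matches here and were in 13.6% of those promoters.

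Arrays of the same group correlated with r between 0.653 and 0.985 over the tested entries, and arrays of different groups with r between 0.544 and 0.989. The 4 arrays least like the others were 59Q replicate 2 at 36 h, 59Q replicate 1 at 60 h and 16Q replicates 1 and 2 at 24 h, with median correlations of 0.759 to 0.801. The arrays lay on 3 slides. Slide 1 carried every 24 h array plus replicates 1 and 2 of the 36 h 16Q group. Slide 2 carried the remaining 36 h arrays, the 60 h 16Q group and replicate 1 of the 60 h 59Q group, whose other replicates were on slide 3, so 60 h and 24 h arrays never shared a slide. Between 18.3% and 35% of the probes for mouse miRNAs passed the scanner's background flag on any array, and precision is limited by the number of arrays. Of 15 listed neuronal miRNAs on the array 8 were tested, among them miR-138, miR-212 and miR-134 on all 18 arrays, while the neuron-defining miR-124 was well above background on 1 array and miR-9 on 0. None of the listed blood, liver and epithelial miRNAs (6, 1 and 7 entries) was well above background on any array.

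Values are log2 scaled signal, where 0 is the 75th percentile, on that array, of the probes well above background on all arrays. They are compared only within an entry, since signals of different probes are not on a common scale. Arrays of bulk RNA cannot tell more cells of a kind from more RNA per cell.

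miR-214, known in mouse muscle cells as a repressor of Ezh2, was the most even entry across replicates. At 24 h it measured -1.06, -1.23 and -1.0 in 59Q cells, against -1.61, -1.62 and -1.15 in 16Q cells. At 36 h it measured -0.54, -1.03 and -0.81 in 59Q cells and -0.42, -0.48 and -0.54 in 16Q cells. At 60 h the 59Q arrays stood at -0.17, -0.06 and -0.59, and the 16Q arrays at -0.11, -0.25 and -0.37. The means were higher at each later time with both constructs, while single arrays of 59Q overlapped between 24 h and 36 h and between 36 h and 60 h, and the 2 constructs overlapped at 24 h and at 60 h. Ordered by mean, the groups ran from 16Q at 24 h (-1.46 ± 0.27, SD, n = 3) over 59Q at 24 h (-1.10 ± 0.12), 59Q at 36 h (-0.79 ± 0.24), 16Q at 36 h (-0.48 ± 0.06) and 59Q at 60 h (-0.27 ± 0.28) to 16Q at 60 h (-0.24 ± 0.13). Neighbours in that order overlapped except 59Q and 16Q at 36 h, whose closest arrays were 0.004 apart.

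miR-199a-5p had its lowest value, -1.02, in replicate 1 of 16Q at 24 h. At 24 h it measured 0.10, -0.36 and -0.23 in 59Q cells, against -1.02, -0.77 and -0.24 in 16Q cells. At 36 h the 59Q values were 0.14, -0.58 and -0.18, and the 16Q values 0.47, 0.02 and 0.22. At 60 h the 59Q values were 0.43, 0.56 and 0.02, and the 16Q values 0.49, 0.53 and 0.40. The 59Q and 16Q arrays overlapped at every time, as did each pair of neighbours when the groups were ordered by mean. All 3 of its probes were well above background on all 18 arrays.

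miR-199b*, the entry for the 5p arm of the Mir199b hairpin, lay at -1.02, -1.05 and -0.88 in 59Q cells at 24 h, against -1.63, -1.55 and -1.01 in 16Q cells. At 36 h it lay at -0.55, -1.46 and -0.91 in 59Q cells, and at -0.54, -0.82 and -0.46 in 16Q cells. At 60 h it lay at -0.44, -0.01 and -0.83 in 59Q cells, and at -0.09, -0.34 and -0.35 in 16Q cells. The constructs overlapped at each time here too, and no neighbouring groups in the order of means were apart. In both miR-199a-5p and miR-199b* the 59Q array at 36 h that stood lowest was replicate 2, which was among the 4 arrays least like the others.

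The joint miR-199b/miR-199a-3p entry stands for the other arm of these hairpins, known in human cells as a repressor of MTOR. At 24 h it measured -3.01, -2.13 and -1.56 in 59Q cells, against -2.35, -2.08 and -1.85 in 16Q cells. At 36 h it measured -3.14, -4.11 and -3.97 in 59Q cells and -2.19, -2.29 and -1.71 in 16Q cells. At 60 h it measured -0.26, -3.88 and -4.10 in 59Q cells and -3.75, -3.87 and -3.52 in 16Q cells. The 36 h 59Q arrays lay below all the 16Q arrays of that time, and replicate 1 of 59Q at 60 h lay far above every other array. It was the dimmest of the entries against background: at least 1 of its 2 probes was well above background on all 3 arrays of 59Q at 24 h, 16Q at 24 h, 16Q at 36 h and 59Q at 60 h, on 2 arrays of 59Q at 36 h and on 1 array of 16Q at 60 h. Values near -4.11, the lower limit set on the scale, have no order among themselves.

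**Figure D1:**
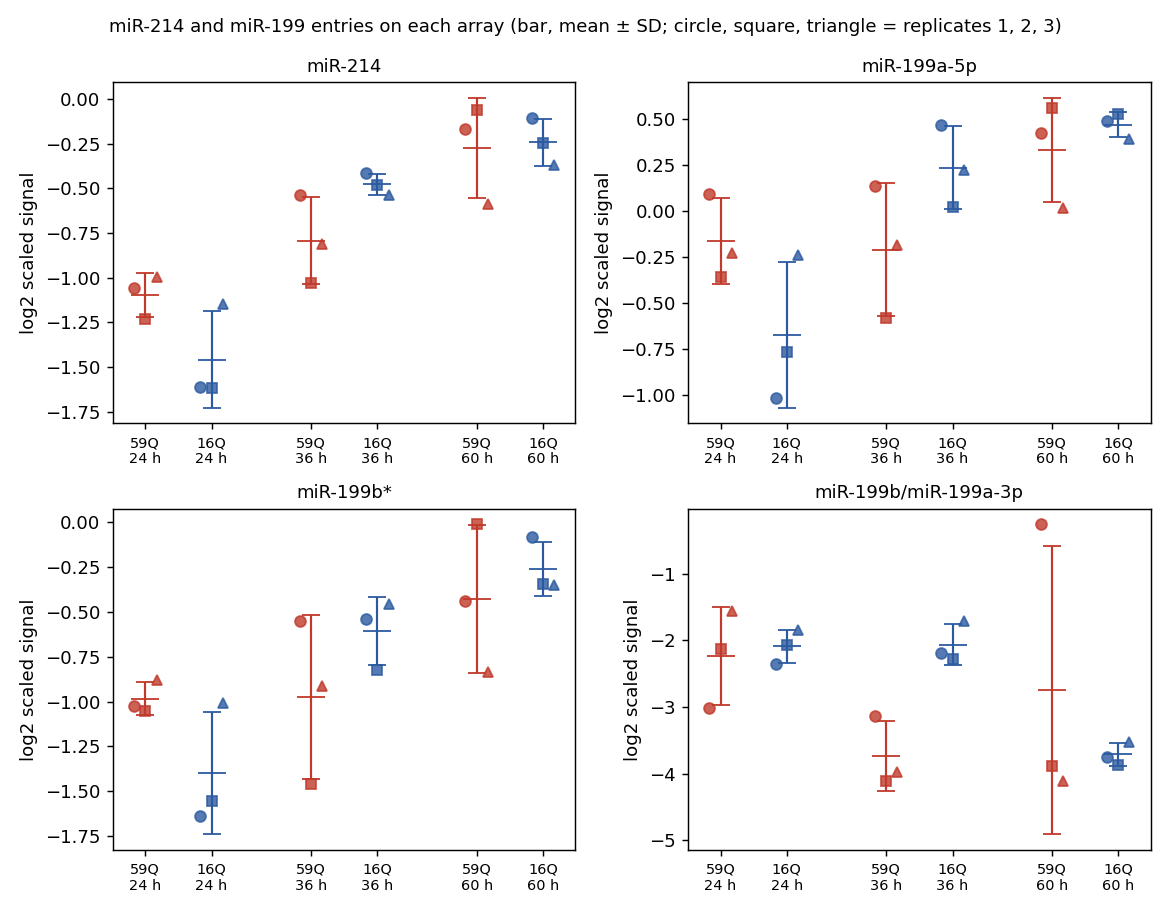
Log2 scaled signal (vertical axis) of the 4 entries on each of the 18 arrays, by construct and time, 59Q in red left of 16Q in blue, with mean and SD bars (n = 3). miR-214, miR-199a-5p and miR-199b* are higher at 60 h than at 24 h in both constructs, while the joint 3p entry is near -4 in most 60 h arrays and at -0.26 in 59Q replicate 1.

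Between 60 h and 24 h the difference in 59Q cells was 0.82 for miR-214, 0.55 for miR-199b* and 0.50 for miR-199a-5p on the log2 scale, which are 1.77-, 1.47- and 1.41-fold. In 16Q cells it was 1.22, 1.14 and 1.15, or 2.32-, 2.20- and 2.21-fold. The joint 3p entry had -0.52 in 59Q cells and -1.62 in 16Q cells. Across the 7 ways of treating background and scaling described below it ranged from -0.52 to 0.21 in 59Q cells, where the deposited table gave the positive value. In 16Q cells it ranged from -2.25 to -0.39. These 7 ways do not include a raised lower limit of the scale, near which most of its 60 h arrays lie. Over all alternatives, which include one, the 3p difference ran from -1.76 to 1.44 in 59Q cells and from -2.25 to -0.13 in 16Q cells. Over all 226 entries the median was -0.01 in 59Q cells and 0.16 in 16Q cells. These are the changes for which the entries were picked, so they carry no test.

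In 59Q cells miR-214 and miR-199b* lay wholly higher at 60 h than at 24 h, a pattern that 3.54% of all tested entries had, and none of the 4 wholly lower (3.1% of all). In 16Q cells miR-214, miR-199a-5p and miR-199b* lay wholly higher at 60 h than at 24 h, as did 31.9% of all entries, and the joint 3p entry wholly lower, as did 20.4%. Nothing is read from these shares, since the rule used the contrast. Among the 226 changes ordered from the highest, miR-214 was at rank 5, miR-199b* at 19 and miR-199a-5p at 27 in 59Q cells, and at 38, 44 and 42 in 16Q cells.

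At 36 h against 24 h the difference in 16Q cells was 0.98 for miR-214, 0.91 for miR-199a-5p and 0.79 for miR-199b*, with all 3 entries wholly higher (10.6% of all entries were). On slide 1 alone, which held 2 of the 36 h and all 24 h arrays of 16Q, the differences were 1.01, 0.92 and 0.72. In 59Q cells the same interval gave 0.30, -0.05 and 0.01, with no entry of the 4 wholly higher (5.75% of all entries) and the joint 3p entry wholly lower at -1.51 (24.8%). The median of all entries over that interval was -0.26 in 59Q cells and 0.15 in 16Q cells. From 36 h to 60 h the 3 entries differed by 0.52 to 0.55 in 59Q cells and by 0.23 to 0.35 in 16Q cells. The median of all entries was then 0.32 in 59Q cells and -0.01 in 16Q cells. The 3 entries stood above it by 0.20 to 0.23 in 59Q cells and by 0.25 to 0.36 in 16Q cells. In 59Q cells none of the 4 was then wholly higher (6.19% of all entries) or lower (0.885%). In 16Q cells miR-214 and miR-199b* were then wholly higher (16.8% of all entries) and the joint 3p entry wholly lower at -1.65 (24.8%).

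The way the 2 constructs differed at 36 h against 24 h turned with the scaling. Without scaling the difference was 0.95 for miR-214, 0.60 for miR-199a-5p and 0.64 for miR-199b* in 59Q cells, against 0.14, 0.07 and -0.05 in 16Q cells. None of the 3 then lay wholly higher with either construct, and the share of all entries was not computed. The median difference of all entries was then 0.31 in 59Q cells and -0.60 in 16Q cells. On the control probes for small RNAs the differences of the 3 were 1.53, 1.18 and 1.12 in 59Q cells, against 0.04, -0.03 and -0.13 in 16Q cells.

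The size of the time differences depended on the scaling between arrays, whose factor lay between 106 and 331 intensity units. In 59Q cells the 60 h against 24 h difference across 7 ways of treating the background and the scaling ranged from 0.50 to 1.5 for miR-214, 0.36 to 1.17 for miR-199a-5p and 0.30 to 1.11 for miR-199b*. In 16Q cells it ranged from 0.29 to 1.22, 0.22 to 1.15 and 0.21 to 1.14. The difference was above 0 for these 3 entries in both constructs under all 7, and above the median of all entries by 0.38 to 0.98 in 59Q cells and 0.41 to 1.06 in 16Q cells. Without scaling the 60 h arrays of 16Q overlapped the 24 h arrays for all 3, while in 59Q cells all 3 lay wholly higher at 60 h. The median difference of all entries was then 0.29 in 59Q cells and -0.70 in 16Q cells. The share of all entries wholly higher was not computed without scaling. The 23 probes for small-RNA controls, other noncoding RNAs of the cell, differed by -0.18 in 59Q cells and 0.73 in 16Q cells between the same times after scaling, and by 0.16 in 59Q cells and -0.20 in 16Q cells without it. Their part in the miRNA values was not tested.

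The 4 arrays least like the others and the slides moved these sizes as well. Without the 4 arrays, which leaves 1 array of 16Q at 24 h, the 60 h against 24 h difference was 0.77 for miR-214, 0.45 for miR-199a-5p and 0.56 for miR-199b* in 59Q cells, and 0.90, 0.71 and 0.75 in 16Q cells. The 36 h against 24 h difference in 16Q cells was then 0.67, 0.48 and 0.40, with replicates 1 and 2 of 16Q at 24 h being the arrays left out of it. With slide as a block, which ties 60 h to 24 h only through the 36 h arrays, the 60 h against 24 h difference was 1.02, 0.61 and 0.32 in 59Q cells and 1.30, 1.17 and 0.92 in 16Q cells. These values of the 3 entries kept the sign they had over the 18 arrays. The joint 3p entry differed between 60 h and 24 h by -1.76 in 59Q cells and -1.86 in 16Q cells without the 4 arrays, and by 1.44 in 59Q cells and -2.14 in 16Q cells with slide as a block, so that its sign in 59Q cells turned with the slide term.

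**Figure D2:**
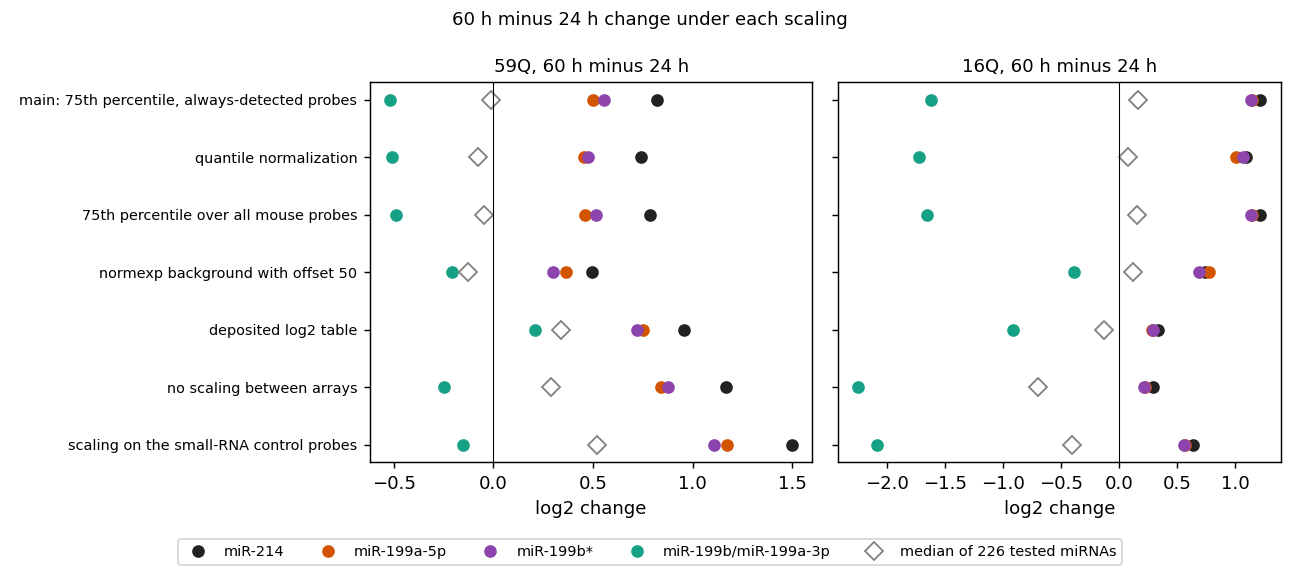
Log2 difference of 60 h minus 24 h (horizontal axis) in 59Q cells on the left and 16Q cells on the right, under 7 treatments of background and scaling (rows). Filled points are the 4 entries and open diamonds the median of the 226 tested entries; miR-214, miR-199a-5p and miR-199b* stand right of 0 and of the diamond in each row.

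The comparison of 59Q with 16Q cells at the same time asks whether the longer glutamine tract came with other levels of these miRNAs. At 24 h the difference between 59Q and 16Q cells was 0.36 for miR-214 (SE 0.23, limma adjusted p = 0.379), 0.51 for miR-199a-5p (SE 0.27, adjusted p = 0.267), 0.41 for miR-199b* (SE 0.28, adjusted p = 0.415) and -0.14 for the joint 3p entry (SE 0.70, adjusted p = 0.907). The number of entries called was 0 of 4, against 0.442% of all 226, which is miR-322 alone. At an unadjusted p under 0.05 it was also 0 of 4, against 46 of all 226 entries. The median of all entries was itself 0.25 higher in 59Q cells at this time, and the 3 positive values ranked 61 to 92 of 226 from the highest. None of the 4 lay wholly higher or lower in 59Q cells, against 6.19% and 3.98% of all entries. All of these arrays were on slide 1. Without scaling the 3 differences were negative, between -0.35 and -0.20. Without the 4 arrays least like the others, which leaves 1 array of 16Q at 24 h, they were 0.05 for miR-214, 0.08 for miR-199a-5p and 0.02 for miR-199b*.

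At 36 h all 4 entries were on the lower side in 59Q cells, where the median of all entries was itself -0.19. From the highest, miR-214 ranked 131, miR-199b* 134, miR-199a-5p 154 and the joint 3p entry 225 of 226. miR-214 differed by -0.31 (95% interval -0.80 to 0.17, limma adjusted p = 0.552), miR-199a-5p by -0.45 (-1.01 to 0.12, adjusted p = 0.436) and miR-199b* by -0.37 (-0.96 to 0.22, adjusted p = 0.570). The joint 3p entry differed by -1.67 (-3.17 to -0.18), a size that depends on the lower limit of the scale, since replicate 2 of 59Q lay at it and replicate 3 near it. With a limit 4 times higher the difference was -0.19, with normexp background -0.92 and from the deposited table -0.49. Its adjusted p was 0.266 and its unadjusted p 0.0301, so 0 of 4 entries were called at 36 h, with 0.442% of all entries called. At an unadjusted p under 0.05 the number was 1 of 4, against 35 of 226. miR-214 and the joint 3p entry lay wholly lower in 59Q cells, as did 22.6% of all entries.

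The 36 h result for the 3p entry turned on an array of another group. With replicate 1 of 59Q at 60 h left out of the fit, which lowers the estimated spread, the same difference of -1.67 had a limma adjusted p of 0.00992, and 10 of all entries (4.42%) were called. On slide 2 alone, with all 3 arrays of 59Q and 1 of 16Q, the difference was -2.02, and with slide as a block its adjusted p was 0.0981. Without the 4 arrays least like the others it was -1.49 with an adjusted p of 0.0890. Over all alternatives its adjusted p ran between 0.00992 and 1. The other 3 differences turned positive without scaling, at 0.34 to 0.47.

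At 60 h the differences were -0.03 for miR-214, -0.14 for miR-199a-5p, -0.17 for miR-199b* and 0.96 for the joint 3p entry, with limma adjusted p between 0.947 and 0.976. None of the 4 was called, with 0.442% of all entries called, and at an unadjusted p under 0.05 it was 0 of 4 and 1 of 226. No member lay wholly higher or lower in 59Q cells, against 2.21% and 1.33% of all entries. The 95% interval was -0.52 to 0.45 for miR-214 and -0.53 to 2.45 for the 3p entry. The 3p difference was -0.28 without 59Q replicate 1. On slide 2, where replicate 1 was the only 59Q array of that time, the difference was 3.45, and with slide as a block it passed at an adjusted p of 0.000353 in a fit that called 21.7% of all entries.

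Averaged over the times, the differences lay between -0.28 and 0.01 with limma adjusted p of 0.999, 0 of 4 entries were called against 0.442% of all, and 0 of 4 passed an unadjusted 0.05, against 2 of 226. For miR-214 the interval of the averaged difference was -0.27 to 0.28, for miR-199a-5p -0.35 to 0.30 and for miR-199b* -0.38 to 0.30. The 60 h minus 24 h change in 59Q cells minus that in 16Q cells was -0.39 for miR-214, -0.65 for miR-199a-5p, -0.58 for miR-199b* and 1.1 for the joint 3p entry, with limma adjusted p of 0.329 to 0.581. None of these passed the test, and their sign turned for 3 entries with the scaling: without it the values were 0.87 for miR-214, 0.62 for miR-199a-5p and 0.66 for miR-199b*. Without the 4 arrays least like the others they were -0.13, -0.26 and -0.19. In that comparison 0 of 4 entries and 0% of all were called, while 55 of 226 had an unadjusted p under 0.05, none of them a member. The F test of any dependence of the construct difference on time gave adjusted p of 0.215 to 0.282 and called 0% of all entries, with 0 of 4 members and 50 of 226 entries at an unadjusted p under 0.05.

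**Figure D3:**
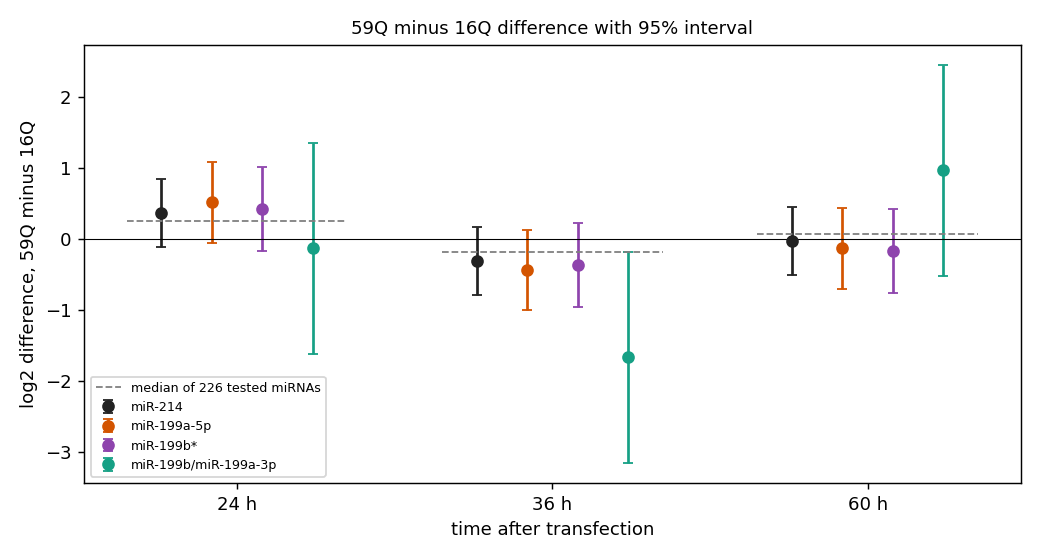
Log2 difference of 59Q minus 16Q (vertical axis) with its 95% interval from the fit, for the 4 entries at 24, 36 and 60 h. The dashed line is the median of the 226 tested entries; only the interval of the joint 3p entry at 36 h, -3.17 to -0.18, leaves out 0, and its adjusted p is 0.266.

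Ratios between entries on the same array need no scaling where their probes lie above the lower limit, which was set after scaling. They describe how the entries differed from each other between arrays. Relative to its mean in 16Q cells at 24 h, the log2 ratio of miR-199a-5p to miR-214 stayed between -0.34 and 0.37 on the 18 arrays. The ratio of miR-199b* to miR-199a-5p stayed between -0.39 and 0.15, and that of miR-199b* to miR-214 between -0.49 and 0.12. These 3 entries kept their ratios within 0.71 log2 units. The entries were picked because several were higher at 60 h than at 24 h, so a rise in common is partly set by that choice. The range was not computed for pairs of other entries, and whether the probes keep miR-199b* and miR-199a-5p apart was not tested. The ratios were added as a measure after the values were seen.

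The ratio of the joint 3p entry to miR-199a-5p, of which the first can also come from Mir199b, spanned 3.76 log2 units. It was -1.69, -0.35 and 0.09 in 59Q cells at 24 h, against 0.08, 0.11 and -0.19 in 16Q cells. At 36 h it was -1.86, -2.11 and -2.37 in 59Q cells, against -1.24, -0.89 and -0.52 in 16Q cells. At 60 h it was 0.73, -3.03 and -2.70 in 59Q cells, against -2.82, -2.98 and -2.49 in 16Q cells. The 59Q arrays were all lower than the 16Q arrays at 36 h, and all 60 h arrays but 59Q replicate 1 lay below every 24 h array. On 59Q replicate 2 at 36 h and 16Q replicates 1 and 2 at 60 h, 0 of the 2 3p probes were well above background. The size of such ratios depends on the lower limit and on the scaling. The lowest ratio, -3.03, came from an array with 1 of the 2 probes well above background.

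**Figure D4:**
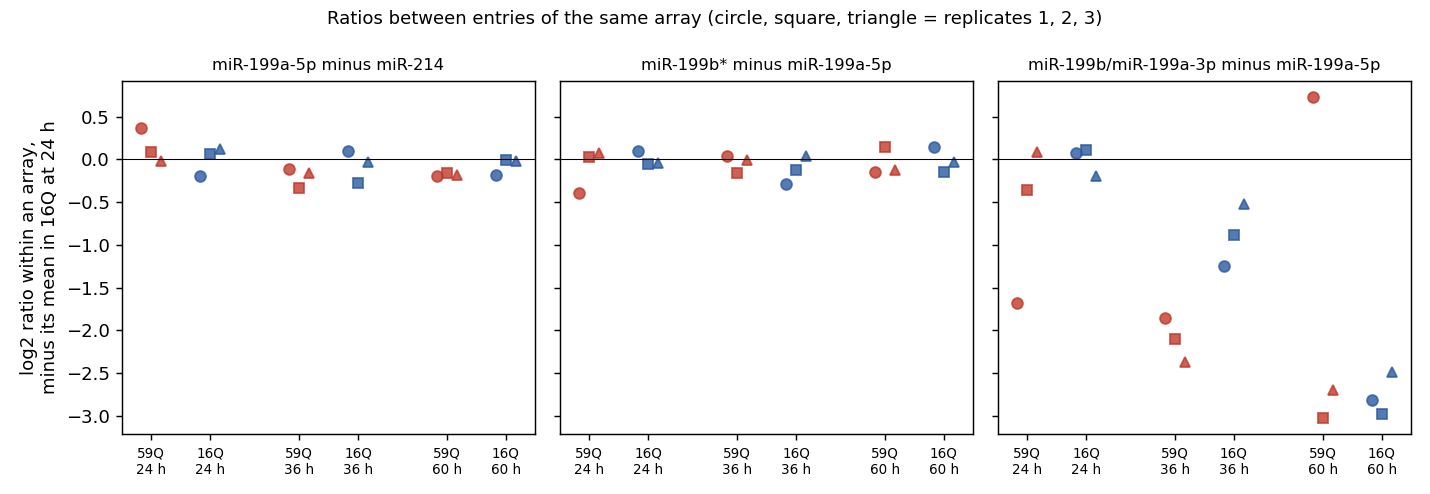
Log2 ratio between entries of the same array minus its mean in 16Q cells at 24 h (vertical axis), by construct and time, 59Q in red left of 16Q in blue. The ratios of miR-199a-5p to miR-214 and of miR-199b* to miR-199a-5p stay within -0.39 and 0.37, while that of the joint 3p entry to miR-199a-5p runs from -3.03 to 0.73.

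Across the 18 arrays, which share groups and slides, the log2 scaled signals of miR-214, miR-199a-5p and miR-199b* correlated with r of 0.936 to 0.952. About the group means r was 0.848 to 0.897. The entries were picked by their 60 h against 24 h change. That change enters r over the 18 arrays but not r about the group means. With the joint 3p entry r was -0.21 to -0.13, 0.11 to 0.19 without scaling and 0.20 to 0.33 about the group means. The typical r between tested entries was not computed. The tested entry outside the group most like each of the 3 was miR-484 (r = 0.927 with miR-214, 0.922 with miR-199a-5p and 0.925 with miR-199b*), followed among the 5 closest by miR-146a and miR-331-3p for all 3, and by miR-33, miR-344 and miR-210 for some. The joint 3p entry was instead closest to miR-467e (r = 0.957), miR-7a (0.948), miR-30b (0.943), miR-21 (0.941) and miR-467c (0.927). Without scaling the 5 closest entries kept 5 names for miR-199a-5p, 4 for miR-214, 3 for miR-199b* and 3 for the 3p entry.

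Replicate 1 of 59Q at 60 h is one of the 18 arrays behind these correlations, which were not computed without it. Its deviation from the mean of the other replicates of its group, which for the 3p entry lie near the lower limit, was 3.73 for the 3p entry on the log2 scale, 4.84 for miR-21, 3.76 for miR-7a and 3.42 for miR-30b. The 3 other entries deviated by -0.02 to 0.16. The 3p sequence has a GC content of 40.9%, against 59.1% for miR-214 and 52.2% for miR-199a-5p. Over the 53 tested entries matched by name to a RefSeq sequence, whose median GC content was 54.5%, GC content and the deviation of this array correlated with r of -0.46. miR-21, miR-7a and miR-30b had no match by name, and the names miR-199a-3p and miR-199b-3p matched no single array entry. The correlation therefore does not cover these entries. The part of GC content in the 3p value was not tested.

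Other miRNAs that could share a source or a cue with the entries were counted. Of 16 miRNAs listed for mesenchymal cells and fibroblasts, besides the entries themselves, 8 were tested. Of these miR-140*, miR-22 and miR-27a were well above background on 18 arrays, miR-21 on 17, and miR-143 and miR-335-5p on 16. miR-155 was so on 13 arrays and miR-196a on 6. Another 4 of the 16 (miR-10a, miR-31, miR-100 and miR-196b) were well above background on no array. Between 60 h and 24 h the 8 had a median difference of -0.06 in 59Q cells, with 4 above 0, and of 0.12 in 16Q cells, with 5 above 0. Over all entries 47.8% were above 0 in 59Q cells and 56.2% in 16Q cells, so the listed mesenchymal miRNAs were near the share of all. Their summed scaled signal, in multiples of the 75th percentile, ran at 24 h from 4.77 to 5.39 in 59Q cells and from 3.01 to 5.67 in 16Q cells. At 36 h it ran from 3.01 to 4.20 in 59Q cells and from 4.54 to 5.08 in 16Q cells. At 60 h it ran from 3.99 to 7.74 in 59Q cells and from 4.27 to 5.16 in 16Q cells. The sum adds probes whose signals are not on a common scale, so it follows the brightest and gives no amount. miR-21, 1 of the 8, stood 4.84 above the other replicates of its group on 59Q replicate 1 at 60 h. The part of mesenchymal cells in the entries' values was not tested. Of 5 muscle miRNAs only miR-206 was tested, with miR-1, miR-133a, miR-133b and miR-208 well above background on no array.

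The list of miRNAs induced by hypoxia or NF-kB held 4 tested members of 5. Between 60 h and 24 h 3 of the 4 were above 0 in each construct, with medians of 0.85 in 59Q cells and 1.26 in 16Q cells. Over all entries 47.8% were above 0 in 59Q cells and 56.2% in 16Q cells. miR-21 and miR-155 are on the mesenchymal list as well, and the lists were chosen with earlier results of these data known. miR-210, the miRNA most closely tied to hypoxia-inducible factor, differed by 1.59 in 59Q cells and 1.97 in 16Q cells, and miR-146a, an NF-kB target that restrains that pathway, by 1.31 in 59Q cells and 1.52 in 16Q cells. Both lay wholly higher at 60 h than at 24 h in both constructs, as did 3.54% of all entries in 59Q cells and 31.9% in 16Q cells. miR-21 was the exception at -0.45 in 59Q cells and -1.24 in 16Q cells. Between 59Q and 16Q cells 0 members of any of these lists were called at any time, with 0.442% of all 226 entries called at each. Whether the miR-199 and miR-214 values have a source in common with these miRNAs was not tested.

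Another 2 entries bear on the members by sequence. miR-214*, the opposite arm of the miR-214 hairpin, was tested through 1 of its 4 probes and lay at -3.65 ± 0.12 in 59Q cells and -3.86 ± 0.17 in 16Q cells at 24 h (SD, n = 3). At 60 h it lay at -3.18 ± 0.39 in 59Q cells and -3.66 ± 0.33 in 16Q cells, a difference from 24 h of 0.46 with 59Q and 0.20 with 16Q. At 36 h it lay at -3.72 ± 0.39 in 59Q cells and -3.12 ± 0.09 in 16Q cells. The 59Q minus 16Q difference was 0.21 at 24 h, -0.60 at 36 h and 0.48 at 60 h. Its limma adjusted p was 0.687, 0.282 and 0.947. Several arrays lie near the lower limit of -4.11. The correlation of miR-214* with miR-214 was 0.61, below that of miR-214 with miR-199a-5p, and 0.76 without scaling. It was well above background on 3 arrays of 16Q at 24 h, 16Q at 36 h and 59Q at 60 h. On 59Q arrays at 24 h and 36 h it was so on 2 each, and in 16Q at 60 h on 1. miR-761, which has the miR-214 seed, was tested through 3 of 4 probes and was well above background on 12 arrays. It differed between 60 h and 24 h by -0.38 in 59Q cells and -0.92 in 16Q cells. The sign was opposite to that of miR-214, with an SE of 0.51 for each value. Between 59Q and 16Q cells miR-761 differed by -0.11 to 0.43 at the 3 times (limma adjusted p = 0.725 to 0.947).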

How the data were processed

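Deposited scanner files of 18 1-colour arrays hold spot intensity made with Agilent Feature Extraction 9.5.1.1, background-subtracted and detrended within an array, per the file headers. The deposited series table holds log2 of net intensity without scaling between arrays, found by setting it against the scanner values, with medians of 4.98 to 5.90. Names of entries come from the array's design and may be outdated. The processed signal, averaged over unflagged spots, was scaled to the 75th percentile, per array, of the 290 mouse probes above background throughout, floored at 0.0581 and taken to log2. An entry is the mean of its probes well above background (at least 50% of spots) on all arrays of at least 1 group, which left 557 probes of 226 entries. No spot was saturated.

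limma 3.58.1 in R 4.3.3 fitted 6 group means (12 residual degrees of freedom) with Benjamini-Hochberg adjustment over the 226 entries at 0.05. All entries named for miR-199 or miR-214 are described, with the 5 entries of highest r for each member, and marker lists are given by counts. The members and lists were chosen with earlier results of these data known. The steps were tested on simulated data. Alternatives concerned background, scaling, floor, filter, probe summary, eBayes, slide, replicate block and arrays left out. Sequences were matched to RefSeq (GRCm38.p6) by miRNA name.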

Additional observations from a re-analysis of the deposited data

How the results depend on the processing

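All differences here are log2, 59Q minus 16Q or later minus earlier, and the cause of the shifts was not tested. Without scaling between arrays, 59Q minus 16Q for miR-214, miR-199a-5p and miR-199b* was -0.35, -0.20 and -0.28 at 24 h, 0.47, 0.34 and 0.42 at 36 h, and 0.52, 0.42 and 0.39 at 60 h, and the change over time in 59Q minus that in 16Q was 0.87, 0.62 and 0.66. From the deposited log2 table these were -0.22, -0.13 and -0.17, then 0.38, 0.28 and 0.34, then 0.40, 0.34 and 0.26, and 0.62, 0.47 and 0.43. With scaling on the small-RNA control probes they were -0.89, -0.74 and -0.72 at 24 h, 0.60, 0.47 and 0.53 at 36 h, and 0.86, 0.61 and 0.55 for the change over time. None of these sign changes brought an entry past the threshold. The median time change of the 4 entries was, without scaling, 0.62 (36 h against 24 h), 0.86 (60 h against 24 h) and 0.24 (60 h against 36 h) in 59Q cells, and 0.0068 and 0.22 for 36 h and 60 h against 24 h in 16Q cells, where miR-199b* at 36 h was -0.054. From the deposited table it was 0.51 and 0.24 in 59Q cells (36 h against 24 h, 60 h against 36 h) and 0.046 and 0.28 in 16Q cells (36 h and 60 h against 24 h). On control probes it was 1.15, 1.14 and -0.0085 in 59Q cells and -0.079, 0.56 and 0.59 in 16Q cells, with single values of -0.010 for miR-199a-5p, -0.0071 for miR-199b* and -0.034 for miR-214 (59Q, 60 h against 36 h), and -0.027 for miR-199a-5p and -0.13 for miR-199b* (16Q, 36 h against 24 h). Normexp background gave 0.53 and 0.71 for 36 h and 60 h against 24 h in 16Q cells, and the fit without the 4 arrays least like the others 0.44 and 0.73.

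The joint 3p entry and the 60 h comparison depended on a few arrays. With a floor 4 times higher, 59Q minus 16Q of the 3p entry at 24 h was 0.10. Without the 4 arrays it was -0.28 at 60 h, and its 60 h against 36 h change in 59Q cells -0.44. With slide as a block the 3p entry was called, so 1 of 4 passed at 60 h, in the change over time and in the F test, where the same fit called 49, 54 and 55 of all 226 entries (21.7%, 23.9% and 24.3%), and miR-214 at 60 h was 0.075. Over fits that leave out 1 array, the number called at 36 h lay between 0 and 1, the 1 being without 59Q replicate 1 at 60 h. In these fits 59Q minus 16Q ran from -0.48 to 0.25 for the 3p entry at 24 h, and at 60 h from -0.25 to 0.022 for miR-199a-5p, -0.38 to 0.035 for miR-199b*, -0.14 to 0.13 for miR-214 and -0.28 to 1.64 for the 3p entry. The 3p change over time in 59Q minus that in 16Q ran from -0.14 to 1.78, and its 60 h against 36 h change in 59Q cells from -0.25 to 1.67.

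The count of all entries called ran over all alternatives from 0 to 50 at 24 h (50 without 16Q replicate 3), 1 to 10 at 36 h, 0 to 49 at 60 h (49 with slide as a block), 1 to 2 averaged, 0 to 54 for the change over time and 0 to 55 for the F test. Requiring probes well above background on all arrays left out the 3p entry. Whether the replicate numbers pair the samples is not settled. Same-numbered 59Q and 16Q deviations correlated between -0.51 and 0.67, above 0.1 in 4 of 9 pairs. For replicate 2 they were 0.38, 0.67 and 0.63 at 24, 36 and 60 h. The fit with the replicate block called 0 of 4 entries at each time, and 1, 1 and 1 of all entries.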
